A study of Mus musculus with 10 samples.

Results

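The metallothionein genes Mt1 and Mt2, their zinc-sensing activator gene Mtf1 and 5 zinc transporter genes (Slc30a1, Slc30a4, Slc39a4, Slc39a8 and Slc39a14) were examined in an epithelial mouse mammary tumour line and 4 mesenchymal lines from its relapses. Mt2 had signals of 26.5 and 59.8 on the arrays of the epithelial line and 5582 to 7764 on those of the mesenchymal lines. Slc30a4 and Slc39a14 were also higher in all 4 mesenchymal lines, and Slc39a4 and Slc39a8 were lower. The members were every probe set (the group of oligonucleotides that reads a transcript on the array) whose only gene symbol was 1 of these 8. They numbered 18 of 45101 probe sets, and 8 of 18193 genes. The genes were chosen with the means of the 5 lines known, so their differences between lines are given as a description, with no test.

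Metallothioneins are small proteins rich in cysteine that bind zinc and copper in the cytosol, and also cadmium. When free zinc rises, the zinc finger factor MTF1 binds metal response elements in the promoters of Mt1, Mt2 and Slc30a1 and raises their transcription; glucocorticoids and oxidative stress also induce metallothioneins. Transporters of the SLC39 (ZIP) family bring zinc into the cytosol, and those of the SLC30 (ZnT) family take it out of the cell or into vesicles. In the mammary gland, zinc transport serves the secretion of zinc into milk.

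Line E is epithelial and was derived from a mammary adenocarcinoma that arose spontaneously in a female of strain FVB/N-TgN(MMTVneu)202Mul. This strain carries a neu transgene under the MMTV promoter, active in mammary epithelium. The mesenchymal lines M1 to M4 were each taken from a relapsed tumour in a female FVB/N host given E cells, so they descend from E. Cells of all 5 lines reached 80% confluence in RPMI with 10% serum, so E and the M lines share this culture, and the labels name no treatment. Each line had 2 arrays of total RNA, and the sources used here do not say if these were separate cultures. Except in the fit to 5 line means, the p-values below therefore measure only the spread between 2 arrays, which may be technical. Those of the fit to 5 line means measure the spread among the M lines. There is 1 epithelial line, so that no value covers variation among such lines, and free zinc was not measured here.

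Across probe sets, the correlation was 0.992 to 0.993 within a line and 0.874 to 0.976 between lines. Overall brightness differed: E replicate 1 had the highest trimmed mean signal (300.5) and M4 replicate 1 the lowest (181.7), and the 3′ to 5′ signal ratio of Actb, a sign of RNA integrity, was 1.16 to 1.38 and highest in M3. In the comparison of the averaged 4 M lines with E the median of all 14840 tested genes was -0.21 on the log2(signal + 32) scale, and 0.04 after quantile normalization, so a member's change is to be read against that shift. The part of brightness and of RNA integrity in the values below was not tested. The 6 epithelial markers (Epcam, Cdh1, Krt8, Krt18, Cldn3 and Cldn7) had a summed signal of 46319 to 49110.0 on the E arrays and 643.3 to 8808 on the M arrays, and the 6 mesenchymal markers (Cdh2, Zeb1, Snai2, Twist2, Fn1 and Vim) 10129 to 10999 and 13784 to 28591. The epithelial sum hides Krt8, which was nearly lost only from line M1 (mean signal 57.05, against 7959 for E). For M2 its mean was 7947, close to that of E, and M3 (5529) and M4 (4538) kept much of it. The other epithelial markers were below both E arrays on every M array. In the mesenchymal sum of E, Cdh2 (9.5 or less) and Fn1 (972.1 or less) were a small part. Other mesenchymal markers were thus already bright in E, and the sum does not show how each one changed. Markers of other cells were low. The 6 leukocyte markers measured of 7 summed to 124.6 to 135.2 on the E arrays and 126.6 to 173.2 on the M arrays, with 1 of them, Csf1r, above 100; the 5 endothelial markers (at most 117.5 in sum) and 3 of 4 adipocyte markers (at most 75.2) were each below 100 on every array. In such bulk RNA, fewer cells of a type and less RNA per cell cannot be told apart.

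Since Mt1, Mt2 and Slc30a1 are the textbook targets of MTF1, the metal response element core was searched in their RefSeq promoter windows (build GRCm38.p6; 250 bases before to 50 after the start). The letters searched were TGCACNC and TGCGCNC on both strands; no matches overlapped each other in these windows. Of 32851 such windows, 25.7% held at least 1 match, 1.97% at least 3 and 0.517% at least 4. Windows were found for 6 of the 8 genes. The Mt2 window held 4 matches, the Mt1 and Slc30a4 windows 3 each, that of Slc30a1 2, those of Slc39a8 0 and 1, and that of Mtf1 0. A match is a match of letters and does not show binding. The 250 bases before the Mt2 start (chr8:94172368-94172617, + strand) are shown because Mt2 differed most between the lines, with the 3 matches in capitals:
Mt2 promoter: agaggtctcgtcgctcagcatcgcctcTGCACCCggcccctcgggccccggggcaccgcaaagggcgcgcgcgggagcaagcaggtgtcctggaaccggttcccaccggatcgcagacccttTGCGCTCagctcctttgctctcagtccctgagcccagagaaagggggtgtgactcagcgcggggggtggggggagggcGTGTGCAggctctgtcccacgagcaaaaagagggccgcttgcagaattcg

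The matches near the starts of the other genes that hold the motif are shown as short stretches, 1 for each gene around the match that lies before the start and nearest to it, 5′ to 3′ on the gene's strand with the match in capitals, so that they can be set beside those of Mt2. A capital run that begins with G is a match on the opposite strand. The stretches lie at chr8:94179056-94179082 (Mt1, + strand), chr1:191906728-191906754 (Slc30a1, + strand), chr2:122702653-122702679 (Slc30a4, - strand) and chr3:135825628-135825654 (Slc39a8, + strand):
Mt1: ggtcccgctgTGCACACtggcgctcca
Slc30a1: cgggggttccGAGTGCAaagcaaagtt
Slc30a4: cggggcgggcGGGTGCAgtggctgggg
Slc39a8: tatctctaaaGGGTGCAgggcctgatc
Matches were present at genes with higher signals in the M lines (Mt2, Slc30a4). They were also present at a gene with lower signals (Slc39a8, in 1 window only), at Mt1, and at 1 whose arrays overlapped with E (Slc30a1). No window was found for Slc39a4 or Slc39a14. As 25.7% of all windows held at least 1 match, presence alone says little, and its link to direction was not tested.

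Mt2, which encodes 1 of the 2 widely expressed metallothioneins, was read by 1 probe set. Its signal was 59.8 and 26.5 on the E arrays, 5642 and 5582 in M1, 7376 and 6590.5 in M2, 7764 and 7661 in M3, and 6542 and 6912 in M4. Every M array lay far above both E arrays, and the 4 M lines lay within 1.37-fold of each other. The order of the line means was M3, M2, M4, M1 and E, and only M2 and M4 overlapped among neighbours. The mean M signal was 157 times that of E; it was 113 times the signal of E replicate 1 and 255 times that of E replicate 2, so the size rests on which E array is used. On the log2(signal + 32) scale M1 differed from E by 6.27, M2 by 6.58, M3 by 6.72 and M4 by 6.53, with a mean of 6.52. Because E was near the low end of the scale, the size of this difference depends on the pseudocount: it was 7.12 with 8 in place of 32 and 5.33 with a pseudocount 4 times as large as 32.

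Mt1, the other widely expressed metallothionein, was read by 2 probe sets that went opposite ways. The brighter one had signals of 5105 and 4710.2 in E, 6228.5 and 6128.5 in M1, 7826 and 6673 in M2, 8498 and 8023 in M3, and 7004 and 7408 in M4. Over the 10 arrays, E included, it lay between the 98.2 and 99.5 percentiles of its array, and every M array was above both E arrays, by 0.33 to 0.75 on the log2(signal + 32) scale in the 4 lines. The line order was M3, M2, M4, M1 and E, the same as that of Mt2, with M2 and M4 again overlapping. The dimmer one had 93.2 and 93.5 in E and 26.8 to 59.5 on the M arrays, all below E, with differences of -1.04 in M1 and -0.54 to -0.65 in the other lines. Among the M lines M1 was lowest on both probe sets, while E was lowest on the brighter one and highest on the dimmer one.

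The name of the brighter probe set ends in "s_at", which in the array maker's naming marks probes that can match more than 1 transcript, so its value is uncertain as a measure of Mt1 alone. In E the Mt2 probe set was at 59.8 or less while this one was at 4710.2 or more; in the M lines both were high, and how much each gene gave was not tested. The mean difference of the brighter probe set was 0.55, and 0.90 after scaling to the hybridization controls. With the mean of both probe sets in its place Mt1 differed by -0.08, so no direction is given for Mt1 as a gene.

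Mtf1, which encodes the zinc-sensing activator, had 5 probe sets, of which 3 passed the low filter (a signal past the 40th percentile on 2 or more arrays). The brightest had signals of 181.7 and 169.1 in E, 148.8 and 143.2 in M1, 116.5 and 125.2 in M2, 83.6 and 68.0 in M3, and 91.5 and 106.2 in M4. Its line order was E, M1, M2, M4 and M3 with no overlap between neighbours, and the mean difference was -0.57. It was -0.18 after quantile normalization. The 2 other kept probe sets overlapped between E and the M arrays, with mean differences of 0.001 and -0.14. M3, the line with the highest Mt2 signal, was lowest on the brightest Mtf1 probe set but was the highest of the M lines on both others (136.6 and 101.6), so the Mtf1 probe sets give the lines no common order.

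**Figure D1:**
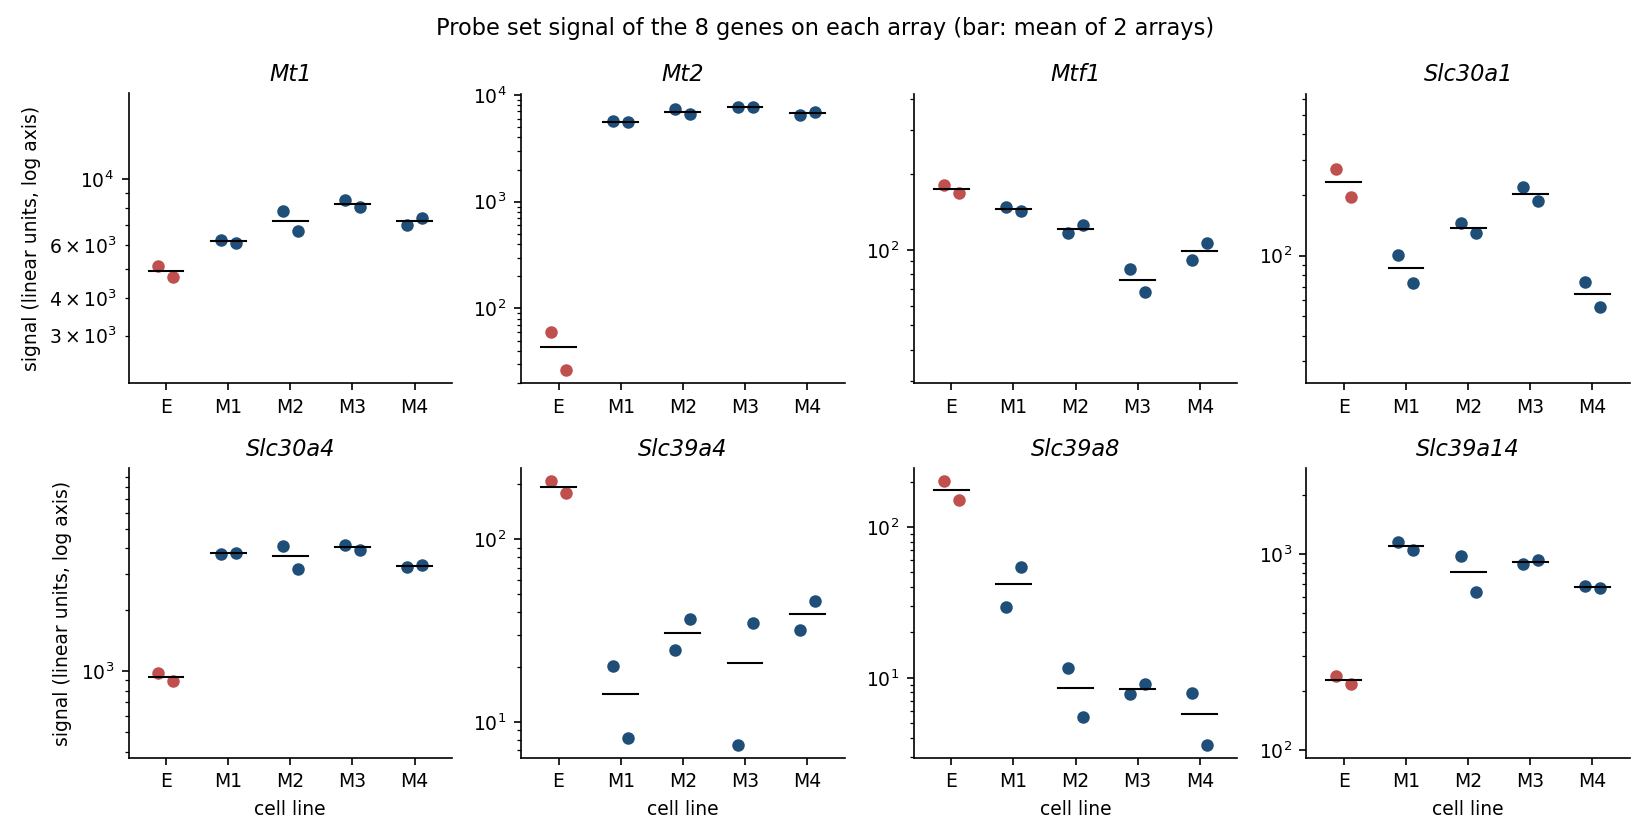
Signal of the brightest kept probe set of each of the 8 genes on each array (y axis: linear signal units on a log axis that differs between panels; x axis: cell line; points: arrays, red for E and blue for the M lines; bars: means of 2 arrays). Mt2 sits at 26.5 and 59.8 in E and at 5582 or more on every M array. The brighter Mt1 probe set is at 4710.2 or more in E. Slc30a1 alone has an M array (M3, 219.5) between those of E.

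The exporter genes differed in direction. Slc30a4, which encodes ZnT4, a carrier that loads zinc into vesicles and is needed for zinc in mouse milk, had signals of 973.1 and 888.7 in E. It had 3775.5 and 3801.5 in M1, 4126.5 and 3186 in M2, 4177 and 3929.7 in M3, and 3226 and 3298 in M4. All M arrays were above both E arrays, the mean M signal was 3.96 times that of E, and the M lines lay within 1.24-fold of each other; M1 overlapped with M2 and M2 with M4 in the order M3, M1, M2, M4 and E. The mean difference of 1.94 on the log2(signal + 32) scale was 2.31 after quantile normalization.

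Slc30a1 encodes ZnT1, the zinc exporter of the plasma membrane. On both probe sets its mean signal was lower than that of E in every M line, with some M arrays overlapping with E. Its brighter probe set had 268.4 and 196.2 in E, 100.5 and 73.1 in M1, 144.9 and 129.6 in M2, 219.5 and 187.1 in M3, and 74.0 and 55.4 in M4. M1, M2 and M4 lay below E, and M3 overlapped with E; the line means of M3 and M4 differed 3.14-fold. This was the widest spread among the M lines of the 8 brightest kept probe sets on the log2(signal + 32) scale, at 1.29. The mean difference from E was -0.84 and was -0.45 after quantile normalization. On the dimmer probe set M1, M3 and M4 overlapped with E and both M2 arrays (50.7 and 48.8) lay below both E arrays (85.4 and 52.6); its mean difference was -0.26 and became 0.03 after quantile normalization. Without M3, the mean difference of the brighter probe set was -1.08.

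Among the importer genes, Slc39a4 and Slc39a8 were lower in the M lines and Slc39a14 was higher. Slc39a4 encodes ZIP4, the importer that takes up dietary zinc in the intestine. Its single probe set had signals of 208.0 and 179.2 in E, 20.2 and 8.2 in M1, 24.6 and 36.4 in M2, 7.5 and 34.7 in M3, and 31.9 and 45.9 in M4. All M arrays were below E, at a mean signal of 0.135 times that of E, and the 4 M lines overlapped with their neighbours in the order. The 40th percentile of an array was at a signal of 14.1 to 21.3, so the low signals of M1 and M3 have no firm order. The mean difference of -1.99 was -2.68 with a pseudocount of 8 and -1.06 with the larger one.

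Slc39a8 encodes ZIP8, an importer of zinc and manganese, and had 2 probe sets. The brighter one had 201.0 and 150.4 in E, 29.6 and 53.9 in M1, 11.6 and 5.5 in M2, 7.8 and 9.1 in M3, and 7.9 and 3.6 in M4. All M arrays were below E, and M1 lay above M2, M3 and M4 without overlap; M2 overlapped with M3 and M3 with M4, all near the bottom of the scale. The mean difference was -2.16, with -1.50 in M1 and -2.35 to -2.45 in the others; it was -3.15 with a pseudocount of 8 and -1.08 with the larger one. The second probe set had 70.2 and 62.3 in E and 0.4 to 25.9 on the M arrays, with M1 again the highest M line. Its M2, M3 and M4 signals were too low to give a firm order.

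Slc39a14 encodes ZIP14, an importer of zinc, manganese and iron that is not bound to transferrin. Its brightest probe set had 239.0 and 217.8 in E, 1145 and 1046 in M1, 974.9 and 635.3 in M2, 889.9 and 929.3 in M3, and 689.2 and 672.6 in M4. All M arrays were above E, at a mean signal 3.82 times that of E. M1 was highest without overlap, and M3, M2 and M4 overlapped with their neighbours. Both dimmer probe sets that reached over 100 in an M line gave mean differences of 1.57 and 1.31 beside 1.77 for the brightest one, and all 3 had M1 highest; the fourth, at 23.3 or less on every array, gave -0.08.

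**Figure D2:**
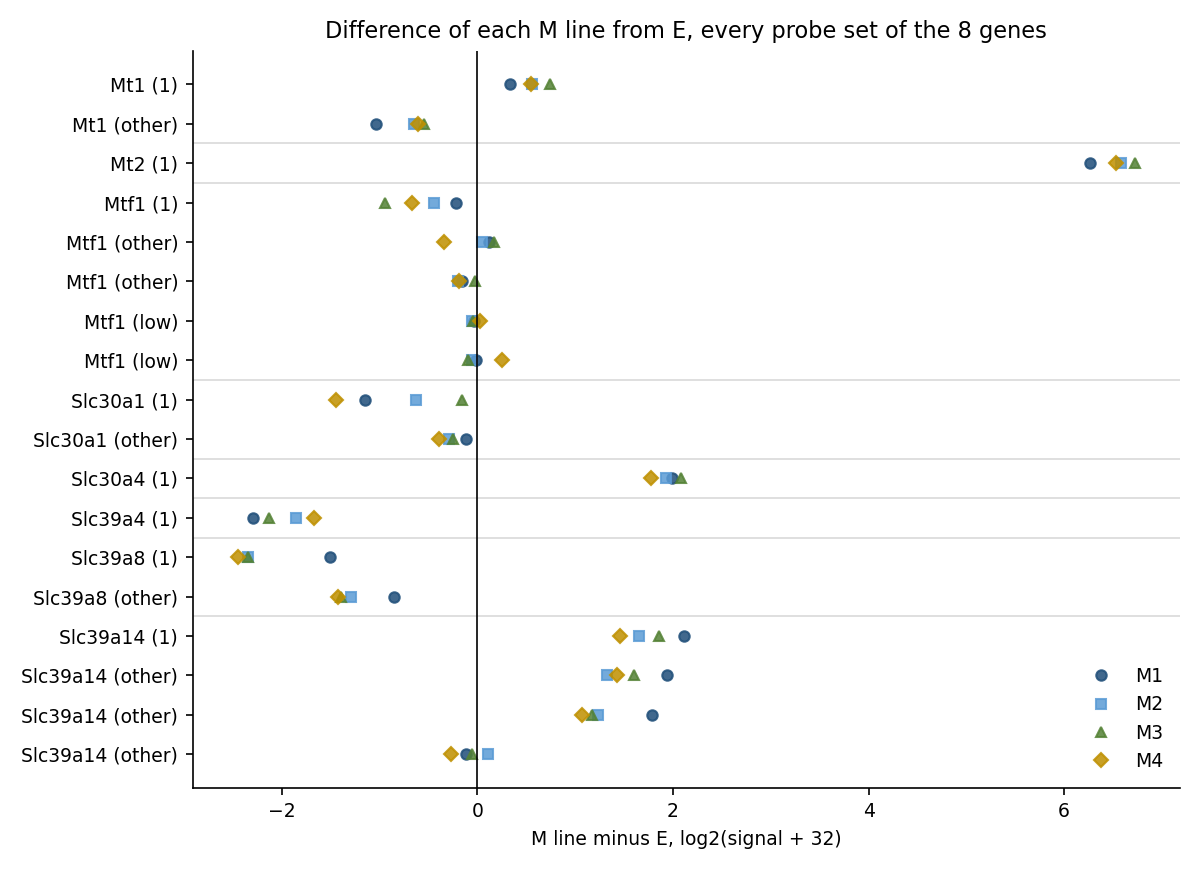
Difference of each M line from E (x axis: log2(signal + 32), points: M1 to M4) for all 18 probe sets of the 8 genes; "(1)" marks the brightest kept probe set of a gene, "other" further kept ones and "low" those that did not pass the low filter. The 2 Mt1 probe sets lie on opposite sides of 0, 3 of the 4 Slc39a14 probe sets lie right of 1, and Mt2 lies at 6.27 to 6.72.

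Over the brightest kept probe set of each gene, all M arrays lay above both E arrays for 4 of the 8 (Mt1, Mt2, Slc30a4 and Slc39a14), where 10.7% of all tested genes did so. They lay below for 3 of the 8 (Mtf1, Slc39a4 and Slc39a8), where 30.9% of all tested genes did (41.6% for either direction), and they overlapped for Slc30a1. As the genes were chosen from these line means, nothing is read from these counts. All 8 genes had a probe set that passed the low filter, 16 of the 18 probe sets in all.

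Mt1 and Mt2 lie next to each other in the RefSeq gene order on chromosome 8, between Mt3 and Nup93. Mt3 and Mt4, the metallothioneins of brain and of squamous epithelium that precede them, did not pass the low filter: Mt3 had 1.4 to 17.8 and Mt4 1.7 to 10.0 over the 10 arrays, with no order among the lines. The flanking gene Bbs2, a ciliary trafficking gene, had a mean E signal of 92.5 ± 13.2 (SD, n = 2) and changed by -0.57 ± 0.15 (SE, limma adjusted p = 0.000632 over all genes), below the 2-fold limit. Nup93, a nuclear pore gene, changed by -0.47 ± 0.12 (limma adjusted p = 0.00043), also below that limit. Nup93 was at 1205 ± 156 (SD, n = 2) in E, 1305 ± 42.2 in M1 and 510.8 ± 6.22 in M3. Neither flanking gene was higher in the mean of the M lines.

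The genes whose line means most resembled those of each member were found by the root mean square difference over the 5 line means, each gene centred on its own mean. Nearest to Mt2 was Ctsz, a lysosomal cysteine protease gene (0.15 on the log2 scale), with a line mean of 5.14 for E and of 11.08 to 11.79 for M1 to M4. Lox (0.33), a collagen cross-linking oxidase gene, and Fgf7 (0.40), a growth factor gene, followed. For Slc30a4 they were Tbcel, Dnajb4 and Clec2d (0.09 to 0.11), and for Slc39a14 Plekha3, Hlx and Clec2d (0.08 to 0.09). The nearest to Slc39a4 were Aatk, Nrep and Nrbp2 (0.08 to 0.13), to Slc39a8 Rab19, Bik and Arhgap21 (0.07 to 0.12), and to Slc30a1 Pim2, Fbxl20 and Pld3 (0.06 to 0.08). Lists by likeness over 5 points are a description of these lines.

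The other zinc transporters, a list of 20 genes made up of SLC30 and SLC39 family members and Tmem163, were tested with limma over all 14840 genes. A gene was called at a Benjamini-Hochberg adjusted p under 0.05 and a change of at least 2-fold. Of 16 that passed the low filter, Slc39a6 and Slc39a11 rose in the averaged 4 M lines against E, Slc39a10 fell and 13 were not called. Every gene with a 2-fold change in this contrast also passed the adjusted p, 3211 of 3211, so that the fold limit alone sets these counts. Of all genes, 7.3% were called higher and 14.3% lower, 21.6% in all, so that 3 of 16 is close to the share of all genes. The list's median change was 0.01, and that of all genes -0.21. Slc30a8, Slc30a10, Slc39a12 and Tmem163 did not pass the low filter.

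Slc39a6, which encodes ZIP6, an importer regulated by oestrogen in breast cells, rose from 1131 ± 199 (SD, n = 2) in E to line means of 2126 ± 103 (M1), 2679 ± 726 (M2), 3466 ± 98.3 (M3) and, lowest, 1734 ± 10.7 (M4). Its change was 1.08 ± 0.11 (SE, limma adjusted p = 2.91e-12), higher in 4 of 4 lines; of its 3 dimmer probe sets 1 changed by 0.73 and the others by 0.02 and -0.14. Slc39a11, which encodes ZIP11, went from 234.8 ± 35.3 in E to 520.4 ± 47.7 for M1, 667.0 ± 107 for M2, 769.5 ± 43.6 for M3 and only 303.4 ± 16.5 for M4 (1.09 ± 0.13, limma adjusted p = 2.26e-10). Slc39a10, which encodes ZIP10, the partner of ZIP6, had 1300.0 ± 51.5 in E and line means from 428.6 (M3) to 813.0 (M2) (-1.05 ± 0.12, limma adjusted p = 9.44e-11); after quantile normalization it changed by -0.69 and was not called. ZIP6 and ZIP10 are known to pair at the cell surface, and here their genes changed in opposite directions, both close to the fold limit.

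None of the 3 calls held in the fit to 5 line means (limma adjusted p = 0.173, 0.254 and 0.172 in the order above). In that fit 1 of the 16 was higher and 2 lower at an unadjusted p under 0.05. Without line M3 none of the 16 was called, with 4 higher and 5 lower at an unadjusted p under 0.05. Slc39a6 and Slc39a11 then changed by 0.91 and 0.93, below the fold limit, and by 0.90 and 0.96 without E replicate 2. The share of all genes at that unadjusted threshold was not counted on 5 line means or without M3, so nothing is read from these unadjusted counts. Below the fold limit in the mean contrast were Slc39a13 (0.73), an importer of intracellular vesicles, Slc30a7 (0.42), a carrier of the Golgi, Slc30a9 (-0.72) and Slc39a9 (-0.91). In the single lines against E, 1 rose and 0 fell in M1, 3 rose and 0 fell in M2, 2 rose and 2 fell in M3, and 0 rose and 1 fell in M4. Of all genes, 20.9% were called in M1 (8.56% higher, 12.4% lower), 20.2% in M2 (8.53% higher, 11.7% lower), 27.3% in M3 (7.67% higher, 19.7% lower) and 26.6% in M4 (6.6% higher, 20.0% lower). Among the 4 M lines, 2 of the 16 (Slc39a11 and Slc39a13) differed by limma's moderated F test with a range of at least 2-fold, where 22.2% of all genes did. At an unadjusted p under 0.05 without a fold minimum limma had 3 of the 16 higher and 4 lower in M1 (20.8% and 33.6% of all genes), 5 higher and 3 lower in M2 (19.6% and 35.0%), and 4 higher and 7 lower in M4 (13.4% and 49.5%). In M3 limma had 5 higher and 3 lower, and the share of all genes was not counted there.

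**Figure D3:**
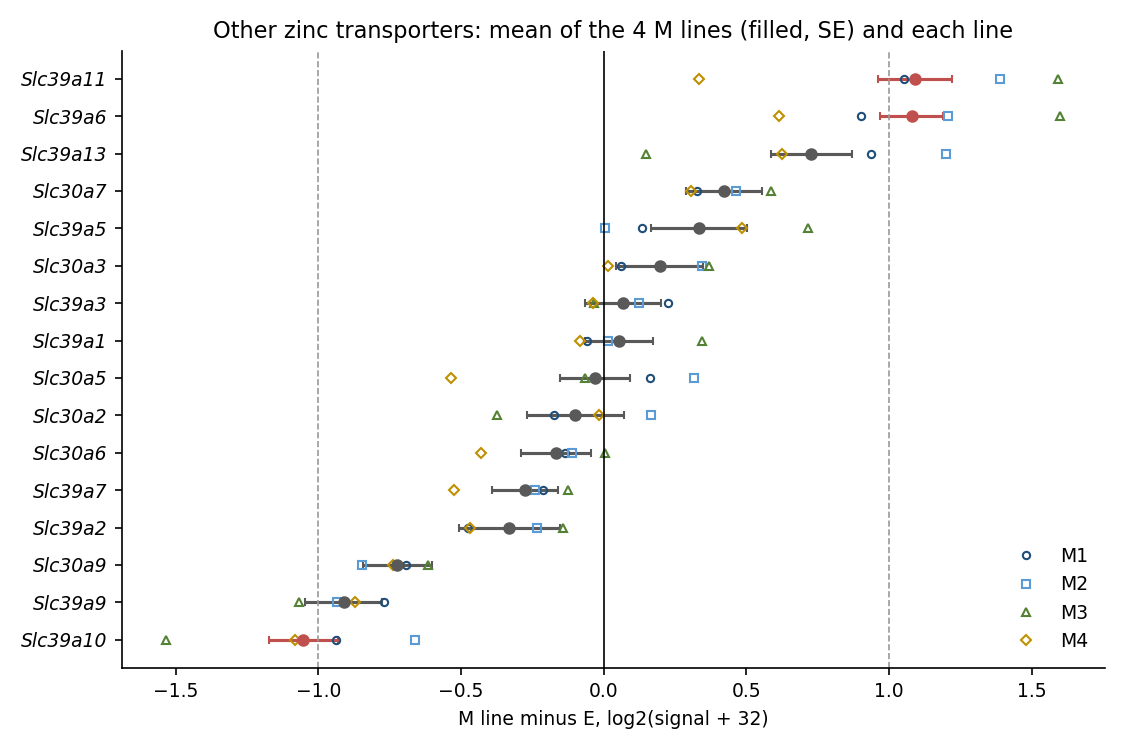
Change of the 16 tested other zinc transporters (x axis: log2(signal + 32), M minus E; filled points: mean of the 4 M lines with its SE, red where called; open symbols: each line; dashed lines: the 2-fold limit). Slc39a11 (1.09), Slc39a6 (1.08) and Slc39a10 (-1.05) lie just past the limit and the other 13 within it.

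The list of genes that respond to MTF1, members left out, held Gclc, Selenow, Selenoh, Ndrg1, Csrp1 and Slc39a10, the last also a zinc transporter. Of these, 2 rose, 2 fell and 2 were not called, where 7.3% of all genes rose and 14.3% fell. The list's median change was -0.19, beside -0.21 for all genes. Since MTF1 represses Slc39a10, these counts do not measure MTF1 activity, which was not tested. Ndrg1, a stress-induced gene that also answers hypoxia, rose by 5.39 ± 0.13 (limma adjusted p = 1.47e-37), from a signal of 9.95 ± 11.4 (SD, n = 2) in E to 646.8 or more on every M array. Its E signals were near or below the 40th percentile, so the size is set by the pseudocount: it was 6.72 with 8 and 3.75 with the larger one. Selenow, which encodes a small selenoprotein, rose by 1.32 ± 0.11 (limma adjusted p = 1.64e-15). Gclc changed by -0.89 and Selenoh by 0.51. Csrp1, a LIM domain gene, fell by 1.32 ± 0.11 (limma adjusted p = 8.04e-15), with -0.03 in M1, and lost its call on 5 line means (limma adjusted p = 0.347); it and Slc39a10, which MTF1 represses, were not called after quantile normalization (-0.99 and -0.69).

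Of 12 genes of copper handling, 2 rose and 0 fell, against 4 that rose after quantile normalization; 7.3% of all genes were called higher and 14.3% lower. At an unadjusted p under 0.05 without a fold minimum limma had 6 higher and 4 lower, where 18.5% of all genes were higher and 44.9% lower. Steap2, a metalloreductase of iron and copper, rose by 4.74 ± 0.12 (limma adjusted p = 3.23e-36), with 4.66 to 4.85 in the 4 lines (5.35 with a pseudocount of 8 and 3.55 with the larger one), and Sco2, which delivers copper to cytochrome c oxidase, by 1.34 ± 0.12 (limma adjusted p = 4.74e-14). Of 14 tested iron genes, 4 rose, 3 fell and 7 were not called, beside the same 7.3% and 14.3% of all genes. Slc40a1, which encodes ferroportin, the only known iron exporter, fell by 3.59 ± 0.14 (limma adjusted p = 7.05e-28), from 739.7 ± 96.4 (SD, n = 2) in E to 19.3 to 52.3 on the M arrays, so that its size also follows the pseudocount (-4.25 with 8 and -2.43 with the larger one). Cp, a ferroxidase, rose by 3.20 ± 0.11 and Steap3, the endosomal ferrireductase, by 2.49 ± 0.15; the E signals of Steap3 were 23.4 and 1.5, and its change was 3.65 with a pseudocount of 8 and 1.28 with the larger one. Lcn2, which binds siderophores, fell by 1.67 ± 0.08, with -4.18 in M1 and -0.22 to -1.23 in the others, and changed by -0.83 without M1. On 5 line means the adjusted p of Sco2 was 0.0592, that of Cp 0.0613 and that of Lcn2 0.482 (limma), while Slc40a1 (0.000479), Steap2 (0.000127) and Steap3 (0.0114) passed.

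Metallothioneins answer glucocorticoids and oxidative stress as well as metals, so lists for both were counted. Of 10 glucocorticoid response genes, 3 rose, 1 fell and 6 were not called, where 7.3% of all genes rose and 14.3% fell. Hsd11b1, which regenerates active glucocorticoid, rose by 2.72 ± 0.13 with 1.20 in M1 and 5.21 in M4. Its E signals were 13.0 and 9.9, below the 40th percentile, and its change was 3.66 with a pseudocount of 8 and 1.62 with the larger one. Dusp1 rose by 1.70 ± 0.11 and Klf9 by 1.43 ± 0.09, and Sgk1 fell by 1.16 ± 0.08 (-0.97 and not called after quantile normalization, -0.87 without M3). On 5 line means none of the 10 was called (limma had 2 higher and 0 lower at an unadjusted p under 0.05). The share of all genes at that threshold was not counted in this fit, so nothing is read from these unadjusted counts. Of 11 tested NRF2 and oxidative stress genes, 4 rose, 1 fell and 6 were not called, again beside 7.3% and 14.3% of all genes, with a median change of 0.59 beside -0.21 for all genes. Hmox1, the inducible haem oxygenase, rose by 5.07 ± 0.10 (limma adjusted p = 8.06e-41), from 73.8 ± 1.41 (SD, n = 2) in E to 2214 or more on every M array. Nqo1, a quinone reductase, rose by 3.65 ± 0.13 from E signals of 18.7 and 10.3, below the 40th percentile; its change was 4.65 with a pseudocount of 8 and 2.27 with the larger one. Nfe2l2, which encodes NRF2, rose by 1.35 ± 0.10, while Osgin1 fell by 1.42 ± 0.14 (not called with the larger pseudocount; adjusted p on 5 line means 0.109, limma). The adjusted p on 5 line means was 0.00104 for Hmox1, 0.0171 for Nqo1 and 0.0438 for Nfe2l2 (limma).

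**Figure D4:**
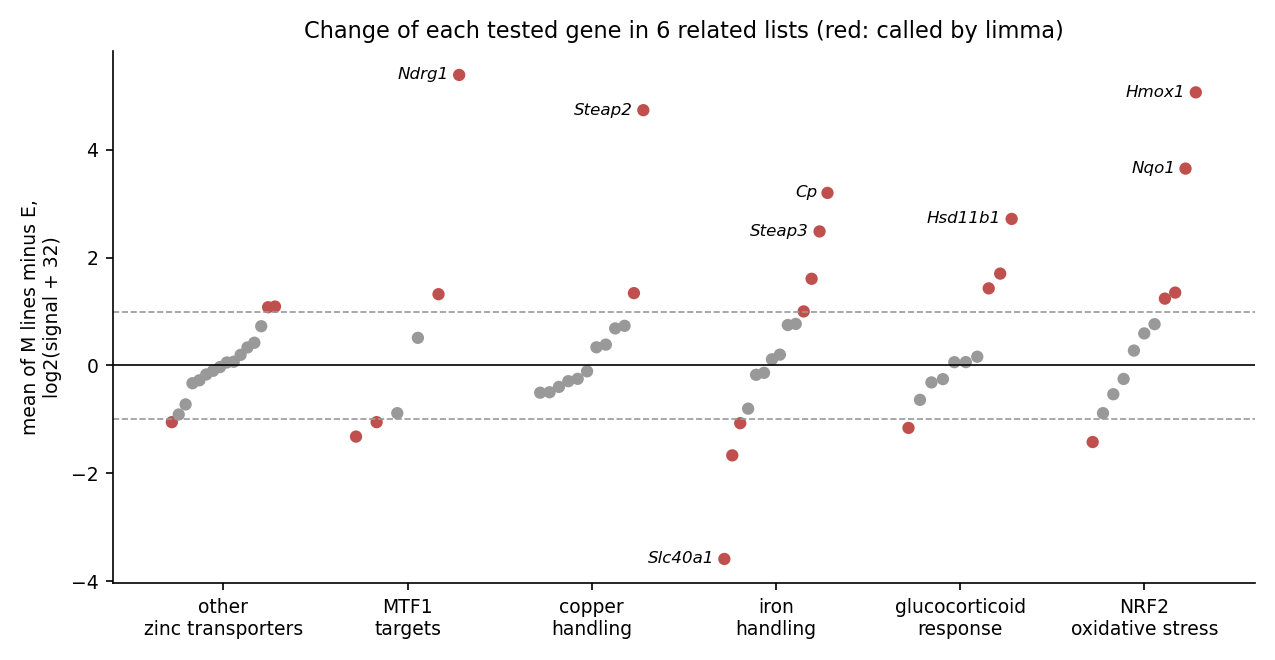
Change of each tested gene of 6 related lists, averaged over the 4 M lines, relative to E (y axis: log2(signal + 32); each point 1 gene, red where called by limma; dashed lines: the 2-fold limit; genes past 2.2 in size are named). Most other zinc transporters lie within the limit, and Ndrg1, Hmox1, Steap2 and Nqo1 lie highest.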

How the data were processed

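RNA of the 5 lines was read on 10 arrays. The deposited values are probe set signals on a linear intensity scale. GCOS 1.3 was used, per the submitters' processing notes; the steps of signal calculation, scaling and background correction were not given in the sources used here. By the platform annotation 34945 probe sets had 1 symbol, 932 several and 9160 none, with 64 controls left out. Signals were taken to log2 after adding 32. Kept were probe sets past the 40th percentile of 2 or more arrays (27422), and of these the one with the highest mean stood for its gene (14840 genes). Limma 3.58.1 in R 4.3.3 fitted 1 mean per line to the 10 arrays with a trended prior (5 residual and 43.9 prior degrees of freedom, median residual SD 0.16 on the log2 scale). A separate fit to 5 line means, with 1 value per line, compared the 4 M lines with E. The code was tested on simulated data. A gene was called at a Benjamini-Hochberg adjusted p under 0.05 and at least 2-fold. The number of arrays limits precision.

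The members and lists were chosen with earlier results of these data known. The percentile was first taken with the control probe sets included, and scaling first used a wider set of hybridization controls; after output had been seen, both were changed, to leave out controls and to use 9 hybridization controls, and the number of genes called was the same before and after. Named were the members, the zinc transporters, up to 4 called genes of each other list by size of change, the 3 nearest patterns of each member whose line means span at least 2-fold, the neighbours of Mt1 and Mt2, and the markers; Gclc and Selenoh were named after their values were seen. Alternatives covered the pseudocount, low values, scaling, probe sets, the replicate number and left-out arrays or lines. Replicate numbers did not pair the samples: deviations of same-numbered arrays from their line means correlated at -0.069 to 0.061.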

Additional observations from a re-analysis of the deposited data

Results flagged for a closer look

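Of the 16 other zinc transporters tested, 2 differed among the M lines by limma's moderated F test with a range of line means of at least 2-fold, where 22.2% of all genes did. Slc39a11 had a range of 1.26 on the log2(signal + 32) scale, lowest in M4 (8.39) and highest in M3 (9.65), with an F-test adjusted p of 1.62e-08 (limma). Slc39a13 had a range of 1.05, lowest in M3 (8.15) and highest in M2 (9.20), with an adjusted p of 9.44e-06 (limma); its range was 0.78 after quantile normalization and 0.85 without M2 replicate 1, below the fold limit.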

How the results depend on the processing

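Signs of the mean differences of the 8 members' brightest probe sets held under every scaling, pseudocount and left-out array or line; with the mean of probe sets Mt1 turned to -0.08. In the mean contrast, the 3 calls among other zinc transporters became 1 with the larger pseudocount (4 times 32) or the mean of probe sets, and 0 on 5 line means or without line M3. The calls of MTF1 targets went from 4 to 2, of copper genes from 2 to 4, under quantile normalization and under scaling to hybridization controls. On 5 line means the calls were 2 for MTF1 targets, 1 for copper, 2 for iron, 0 for glucocorticoid and 3 for NRF2 genes, and 1559 of all genes in place of 3211; the mean of probe sets gave 3 for NRF2 genes, and the larger pseudocount gave 2056 of all genes. Of all calls 1083 were higher and 2128 lower, against 1419 and 1289 after quantile normalization, 1361 and 1385 with hybridization controls, and 1268 and 1642 with median centring. For M1 minus E the 1 call became 2 with a pseudocount of 8 or values below 64 set to 64, 3 under each of the 3 scalings, 0 with the larger pseudocount (limma had 3 higher and 4 lower at an unadjusted p under 0.05), and 0 to 3 with an array left out (3 without E replicate 1, 0 without E replicate 2). For M4 minus E the 1 call became 2 with a pseudocount of 8, quantile normalization or hybridization controls, 0 with the larger pseudocount, median centring or the mean of probe sets (limma had 3, 5 and 3 higher and 7, 5 and 7 lower at an unadjusted p under 0.05), and 0 to 2 with an array left out (2 without E replicate 2, 0 without M4 replicate 1). For M3 minus E the 4 calls became 2 with the mean of probe sets. Shares of all genes at an unadjusted p under 0.05 were not counted under the alternative settings. The F test's 2 calls became 1 with the larger pseudocount and under each scaling, and were 1 to 3 with an array left out (1 without M2 replicate 1). Fits to 5 line means have fewer residual degrees of freedom and measure the spread among the M lines. The cause of the shifts in that fit and under the other settings was not tested. With the replicate number as a block, 3 other zinc transporters and 3211 of all genes were called, all 3211 shared with the fit without it; without the low filter the count was also 3211. The fold limit alone set these equal counts, since every gene with a 2-fold change passed the adjusted p in all 3 fits (8993 genes without the block, 9145 with it and 8917 without the filter had an adjusted p under 0.05), while the prior degrees of freedom moved from 43.9 to 683 and 9.76. No test covers variation among epithelial lines, and signals under about the 40th percentile of an array carry no order.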
